A study of Homo sapiens with 12 samples.

Results

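Glycolysis splits glucose into pyruvate and lactate in the cytosol, and the hypoxia-inducible factors (HIFs) are the transcription factors that switch on much of that pathway when oxygen is short. The 34 genes described here are the glucose transporters, glycolytic enzymes and their regulators (22 genes) together with the HIF subunits, the oxygen-sensing machinery and other HIF targets (12 genes). They were listed by symbol, matched to rows of the count matrix by Ensembl ID, and all 34 were found among the 57500 genes listed. All 34 were also among the 15805 genes with enough counts to be tested. The cells were OE33, an established human esophageal adenocarcinoma line, in 4 groups of 3 libraries of polyadenylated RNA. The rABS+shAPE1 group (shAPE1) and the rABS+shCtrl group (shCtrl) were OE33 survivors of repeated acidified bile salts that were stably transduced with a short hairpin RNA against APE1 or with a non-targeting one. The rABS group was the same survivors without a hairpin, after 20 minutes a day for 15 days in a 200 µM bile salt cocktail at pH 5.5. The Parental group was untreated OE33. No mock-exposed group was analysed here, and the labels name 1 APE1 hairpin, so passage and culture cannot be told apart from exposure, nor other targets of that hairpin from loss of APE1. Between shCtrl and rABS, transduction likewise cannot be told apart from passage and culture.

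In normal oxygen the prolyl hydroxylases EGLN1 and EGLN3 mark the HIF alpha subunits, encoded by HIF1A and EPAS1, and the VHL ubiquitin ligase then has them destroyed. HIF activity is therefore set largely at the protein level, and mRNA of HIF1A or EPAS1 need not follow it. HIF-1 raises transcription of most glycolytic genes, and also of genes for mitophagy (BNIP3, BNIP3L), collagen hydroxylation (P4HA1), vascular signalling (ADM) and chromatin (KDM3A), and EGLN3 itself is a HIF target. Tumour epithelia commonly run glycolysis at a high rate also when oxygen is present, and MYC and other factors drive many of the same enzymes.

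Library totals ran from 15736087 to 23010377 counts, and replicates of a group correlated at 0.98728 or more across genes on the log2 scale. APEX1, which encodes APE1, had, in CPM (counts scaled to a common library size), 4.42, 4.50 and 5.88 in shAPE1, 61.96, 56.5 and 60.9 in shCtrl, 81.8, 84.5 and 79.9 in rABS, and 52.9, 54.3 and 56.9 in Parental, and every shAPE1 library was below every other library. The share of counts from mitochondrial genes was 3.13% to 4.22% in shAPE1, 2.63% to 3.30% in shCtrl, 2.69% to 3.65% in rABS and 1.90% to 2.75% in Parental, and its part in the results was not tested. The 6 epithelial marker genes summed to 10510 to 11040 CPM in shAPE1, 11980 to 13260 in shCtrl, 12550 to 15220 in rABS and 14130 to 17700 in Parental. Most of that sum was KRT19, at 7024 to 8816 CPM in rABS and 9893 to 12921 in Parental. In the edgeR test described below, KRT19 and CDH1 were lower in rABS than in Parental. KRT8 and KRT18 were higher there, and EPCAM and KRT7 were not called. The 6 fibroblast markers summed to 7.28 to 8.33 CPM in shAPE1, 9.06 to 9.46 in shCtrl, 3.47 to 4.19 in rABS and 22.5 to 29.5 in Parental, and the 5 leukocyte and 4 endothelial markers to at most 24.7 and 0.889 CPM. Nearly all of the fibroblast sum was COL1A1, at 22.5 to 29.4 CPM in Parental. COL1A2, COL3A1, DCN, LUM and PDGFRB had at most 3 counts in any library. The leukocyte sum was likewise nearly all CD14, CD79A and LYZ, with at most 4 counts of PTPRC or CD3E in any library. These low sums also differed between groups, and their part in the results was not tested. Values after ± are SDs over 3 libraries for levels and ratios, and standard errors for log2 fold changes. In bulk RNA, fewer cells of a kind and less RNA per cell cannot be told apart.

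Between rABS and Parental, 16 of the 34 genes were higher, 9 lower and 9 not called (Benjamini-Hochberg adjusted p under 0.05 over all genes tested, edgeR quasi-likelihood test, n = 3 per group). Over all genes tested, 29.9% were higher and 29.9% lower. The median log2 fold change was 0.12 for the members, against -0.01 for all genes tested. Between shCtrl and rABS, 7 members were higher and 22 lower, where 17.9% and 18.6% of all genes were, and the medians were -0.31 and 0.02. Between shAPE1 and shCtrl, 12 were higher and 9 lower, where 17.8% and 18.8% of all genes were. Between shCtrl and Parental, the comparison that spans exposure and transduction, 13 were higher and 11 lower, where 27% and 26.1% of all genes were. These comparisons share libraries with one another, so their results are not independent.

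**Figure D1:**
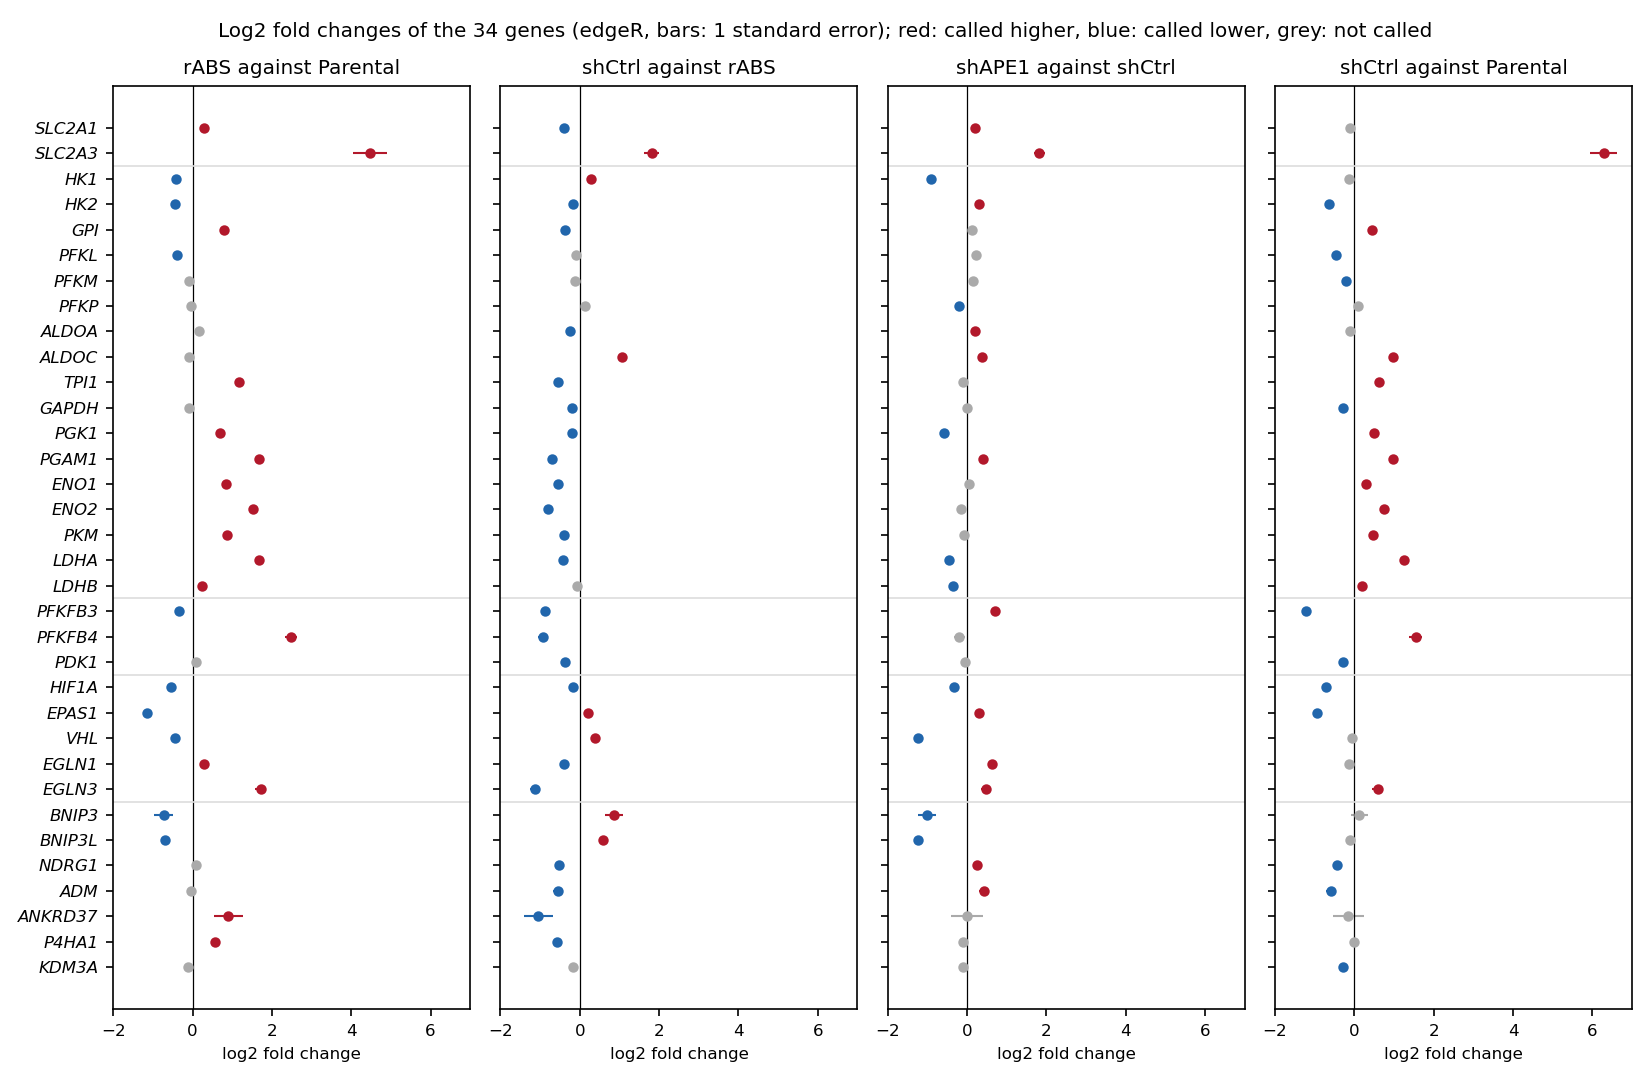
Log2 fold changes (horizontal axes) of the 34 genes in the 4 comparisons, grouped from top to bottom as glucose transporters, enzymes in pathway order, regulatory kinases, HIF subunits with oxygen sensing, and other HIF targets. Points are edgeR estimates with bars of 1 standard error. Between rABS and Parental the enzymes from TPI1 to LDHB lie right of 0 except GAPDH, and between shCtrl and rABS 22 of the 34 points are called lower.

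Glucose enters the cell through facilitative transporters, and the pair examined behaved very differently. SLC2A3, the gene of the high-affinity transporter GLUT3 (chromosome 12, 7919230 to 7936275, GRCh38), was nearly silent in Parental, with 3, 2 and 0 counts in its 3 libraries, and had 574, 495 and 433 counts in shAPE1, 144, 163 and 185 in shCtrl and 41, 30 and 52 in rABS. Scaled to depth these were 28.8, 27.8 and 27.1 CPM in shAPE1, 7.61, 6.91 and 9.21 in shCtrl, 2.33, 1.75 and 2.62 in rABS and 0.208, 0.0936 and 0 in Parental. No library of one group overlapped another group, and Parental was lowest and shAPE1 highest. The ratio of summed counts, scaled to depth, was 23.8 for rABS over Parental, with an exact 95% interval of 9.92 to 74.6 that covers counting error only, with 5 counts in all in Parental. It was 3.49 for shCtrl over rABS (2.86 to 4.29) and 3.56 for shAPE1 over shCtrl (3.21 to 3.95), with edgeR adjusted p = 2.49e-09 and 4.56e-12. Of SLC2A14, a near-identical neighbour, at most 3 counts were seen in any library.

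SLC2A1, the gene of the basal glucose transporter GLUT1 (chromosome 1, 42925375 to 42959176), was abundant throughout, at 374, 399 and 388 CPM in shAPE1, 337, 344 and 339 in shCtrl, 457, 453 and 442 in rABS, and 373, 353 and 383 in Parental. rABS stood above Parental (log2 fold change 0.29 ± 0.06, standard error, adjusted p = 0.000163), shCtrl below rABS (-0.41 ± 0.06, adjusted p = 3.96e-06) and shAPE1 slightly above shCtrl (0.19 ± 0.06, adjusted p = 0.0162). The last of these was lost without shCtrl replicate 1 or 3 (adjusted p = 0.0534 and 0.0598). Per kilobase of merged exon length, SLC2A3 averaged 4.53 CPM in shAPE1, where SLC2A1 averaged 81.9, so GLUT1 mRNA remained the more abundant of the pair there. Within a library, SLC2A3 counts came to 7.22% ± 0.421 of SLC2A1 counts in shAPE1, 2.33% ± 0.358 in shCtrl, 0.497% ± 0.105 in rABS and 0.0274% ± 0.0279 in Parental (mean and SD, n = 3).

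The enzymes divided by position in the pathway between rABS and Parental, a grouping made after their values were seen. Of the 9 genes from triose phosphate isomerase to lactate dehydrogenase, 8 rose and GAPDH was not called, with a median log2 fold change of 0.88. Of the 8 genes from hexokinase to aldolase, GPI rose, HK1, HK2 and PFKL fell, and 4 were not called, with a median of -0.08. Of all genes tested, 29.9% were higher and 29.9% lower in this comparison. The largest rises were in LDHA, which encodes the lactate dehydrogenase subunit that favours turning pyruvate into lactate, and in PGAM1, phosphoglycerate mutase.

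LDHA (chromosome 11, 18394388 to 18408425) stood at 711, 619 and 714 CPM in shAPE1, 994, 884 and 927 in shCtrl, 1204, 1307 and 1221 in rABS, and 368, 385 and 418 in Parental. The groups did not overlap: rABS was highest, shCtrl next, then shAPE1, and Parental was lowest. The log2 fold change was 1.67 ± 0.07 between rABS and Parental (adjusted p = 2.56e-19), -0.41 ± 0.07 between shCtrl and rABS (adjusted p = 1.95e-05) and -0.46 ± 0.07 between shAPE1 and shCtrl (adjusted p = 3.4e-06). LDHB, the heart-type subunit, changed less, with 358 ± 16.2 CPM in rABS and 302 ± 12.2 in Parental (log2 0.25, adjusted p = 0.00129). The count ratio of LDHB to LDHA was 0.397 ± 0.0266 in shAPE1, 0.366 ± 0.00428 in shCtrl, 0.288 ± 0.00317 in rABS and 0.773 ± 0.0253 in Parental, so all 9 exposed libraries had a lower ratio than any Parental library.

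PGAM1 (chromosome 10, 97426160 to 97433441) had 249, 256 and 245 CPM in shAPE1, 192, 184 and 188 in shCtrl, 289, 328 and 297 in rABS, and 91.7, 92.9 and 102 in Parental. It rose 3.19-fold in rABS (log2 1.67 ± 0.07, adjusted p = 1.05e-19), was lower in shCtrl than in rABS (log2 -0.69 ± 0.07) and higher in shAPE1 than in shCtrl (log2 0.41 ± 0.07, adjusted p = 8.33e-06). The shAPE1 difference thus had the opposite sign to that of LDHA. Counts on 13 PGAM1 pseudogenes came to 0.965% of those on PGAM1.

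The promoters of LDHA, BNIP3 and PDK1, chosen after their values were seen, are shown because these HIF targets were higher, lower and not called in rABS. The sequences run from 250 bases before to 50 bases after the start in RefSeq's annotation (GRCh38.p14), in lower case, with every ACGTG and every GCGTG on either strand in capitals. They lie at chr11:18394313-18394612, plus strand, for LDHA, at chr10:131981874-131982173, minus strand, for BNIP3, and at chr2:172555123-172555422, plus strand, for PDK1, whose window holds neither string.
LDHA: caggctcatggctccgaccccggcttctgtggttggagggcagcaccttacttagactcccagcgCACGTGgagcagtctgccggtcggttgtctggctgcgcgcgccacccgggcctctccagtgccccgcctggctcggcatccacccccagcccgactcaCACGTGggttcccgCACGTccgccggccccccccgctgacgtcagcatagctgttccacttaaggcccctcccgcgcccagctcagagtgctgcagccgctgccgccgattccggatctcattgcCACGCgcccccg
BNIP3: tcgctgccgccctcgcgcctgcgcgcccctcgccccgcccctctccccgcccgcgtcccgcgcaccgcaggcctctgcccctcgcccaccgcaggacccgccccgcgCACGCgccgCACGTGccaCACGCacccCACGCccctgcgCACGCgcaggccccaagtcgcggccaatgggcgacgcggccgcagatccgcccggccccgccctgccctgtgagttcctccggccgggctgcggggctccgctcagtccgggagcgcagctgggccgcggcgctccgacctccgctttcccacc
PDK1: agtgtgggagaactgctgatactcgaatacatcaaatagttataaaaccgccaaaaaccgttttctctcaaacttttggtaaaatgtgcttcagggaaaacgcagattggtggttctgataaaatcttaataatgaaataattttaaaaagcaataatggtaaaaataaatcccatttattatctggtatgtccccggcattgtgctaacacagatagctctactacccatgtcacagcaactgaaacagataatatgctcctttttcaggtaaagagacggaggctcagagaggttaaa
An ACGTG or GCGTG was present in 23 of the 30 members that had a promoter entry (76.7%), and in 48.4% of all 35116 promoters of that length. For the glycolytic genes it was 15 of 21, and for the HIF-side genes 8 of 9. PGAM1, TPI1 and EGLN3, which rose in rABS against Parental, held neither string. Neither did HK1, which fell, nor PFKM, PFKP and PDK1, which were not called. ACGTG also lies within CACGTG, the E-box bound by MYC and its relatives, which occurred in 5 of the 30 and in 7.26% of all promoters, and LDHA and BNIP3 both carry it. The shares of all promoters include genes not tested here, whereas every member was tested. For 10 of the 30, PGAM1, PFKP, EGLN3 and PFKFB4 among them, the RefSeq start lay over 1000 bases inside the outermost GENCODE start. Their windows are thus not those of every transcript. The PDK1 window lies at the outermost GENCODE start of that gene. Any PDK1 start farther inside was not examined, so the lack of both strings holds for this window only. SLC2A3, VHL, BNIP3L and NDRG1 had no entry.

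TPI1, triose phosphate isomerase, had 525, 526 and 525 CPM in shAPE1, 573, 569.8 and 561 in shCtrl, 847, 854 and 790.4 in rABS, and 364, 358 and 385 in Parental. ENO1, the ubiquitous enolase, had 918, 960.4 and 943 CPM in shAPE1, 909.9, 904 and 931 in shCtrl, 1280.0, 1425 and 1283 in rABS, and 743, 683 and 795 in Parental. ENO2, the neuronal-type enolase, had 26.8, 33.02 and 24.8 CPM in shAPE1, 30.6, 31.01 and 32.3 in shCtrl, 54.5, 56.2 and 51.9 in rABS, and 19.2, 17.5 and 19.4 in Parental. In all 3 genes the rABS libraries were the highest and the Parental libraries the lowest, with shCtrl and shAPE1 between them, overlapping each other for both enolases and with shAPE1 below shCtrl for TPI1. Between rABS and Parental the log2 fold changes were 1.17 ± 0.06, 0.84 ± 0.07 and 1.54 ± 0.10 for TPI1, ENO1 and ENO2, and between shAPE1 and shCtrl none of them was called (adjusted p = 0.158, 0.69 and 0.252). PKM, pyruvate kinase of the muscle and tumour type, had 1740.3, 1857 and 1733 CPM in shAPE1, 1808, 1916 and 1864 in shCtrl, 2436, 2574 and 2349 in rABS, and 1355, 1223 and 1427 in Parental. It rose 1.84-fold in rABS (adjusted p = 3.83e-13). PGK1, phosphoglycerate kinase, rose 1.62-fold in rABS, to 350.2 ± 11.9 CPM against 217 ± 7.31 in Parental, and fell in shAPE1, to 204 ± 15.99 CPM against 303 ± 7.37 in shCtrl (log2 -0.57 ± 0.07, adjusted p = 2.54e-08). GAPDH, glyceraldehyde-3-phosphate dehydrogenase and a common reference gene, averaged 4558 ± 194 CPM in shAPE1, 4565 ± 52.9 in shCtrl, 5229 ± 160.3 in rABS and 5581 ± 262 in Parental. It was lower in shCtrl than in Parental (log2 -0.29 ± 0.06, adjusted p = 0.000183).

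Upstream of the triose phosphates, hexokinase traps glucose as glucose 6-phosphate. HK1, the ubiquitous hexokinase (chromosome 10, 69269984 to 69401884), had 76.4, 78.3 and 72.3 CPM in shAPE1, 139, 143 and 144 in shCtrl, 117, 118 and 113 in rABS, and 161, 150.3 and 156 in Parental. Its rABS libraries lay below Parental (log2 -0.42 ± 0.07, adjusted p = 1.28e-06), its shCtrl libraries above rABS (0.29 ± 0.07, adjusted p = 0.000692), and its shAPE1 libraries were the lowest of all (-0.91 ± 0.07 against shCtrl, adjusted p = 1.47e-12). HK2, the inducible hexokinase, averaged 166 ± 9.39 CPM in shAPE1, 134 ± 3.60 in shCtrl, 152 ± 4.92 in rABS and 208 ± 2.12 in Parental, and it rose in shAPE1 where HK1 fell (log2 0.31 ± 0.07, adjusted p = 0.000325). The count ratio of HK2 to HK1 was 2.20 ± 0.0766 in shAPE1 and 0.947 ± 0.0285 in shCtrl, against 1.31 ± 0.0249 in rABS and 1.34 ± 0.0344 in Parental. Every shAPE1 library had a higher ratio, and every shCtrl library a lower one, than any rABS or Parental library.

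GPI, glucose-6-phosphate isomerase, rose 1.75-fold in rABS, to 681 ± 16.4 CPM against 390.02 ± 18.4 in Parental (adjusted p = 1.77e-12). Phosphofructokinase commits sugar to glycolysis, and its 3 isozyme genes moved little. PFKP, the platelet type, was the most abundant per kilobase of exon in every group, at 82.2 CPM in shAPE1 and 88.9 in Parental, where PFKL had 15.9 and 19.1 and PFKM 9.74 and 10.1. PFKL, the liver type, was lower in rABS than in Parental (log2 -0.38 ± 0.09, adjusted p = 0.000442) although the libraries overlapped, and PFKP was lower in shAPE1 than in shCtrl (log2 -0.21 ± 0.06, adjusted p = 0.00775). PFKM was called once, lower in shCtrl than in Parental (log2 -0.21 ± 0.07, adjusted p = 0.0193), and that call was lost without shCtrl replicate 1 or 3 or Parental replicate 3 (adjusted p = 0.0542 to 0.122). Exons of SENP1 on the opposite strand overlap those of PFKM, and as the strand setting of the counts is not given in the sources used here, reads of this pair cannot be told apart.

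Aldolase cleaves fructose 1,6-bisphosphate, and its brain-type gene ALDOC (chromosome 17, 28573115 to 28577264) differed between the hairpin groups and the others. It had 126, 137 and 127 CPM in shAPE1, 101, 97.4 and 101 in shCtrl, 47.1, 49.9 and 47.1 in rABS, and 52.9, 47.2 and 52.4 in Parental. The rABS and Parental libraries overlapped (log2 -0.08 ± 0.08, adjusted p = 0.38), all shCtrl libraries were above them (log2 1.05 ± 0.07 against rABS, adjusted p = 7.64e-13), and all shAPE1 libraries were above shCtrl (0.38 ± 0.07, adjusted p = 5.33e-05). ALDOA, the main aldolase, averaged 3292 ± 234 CPM in shAPE1, 2889 ± 101 in shCtrl, 3444 ± 198 in rABS and 3102 ± 280.1 in Parental, and ALDOC counts were 3.96% ± 0.101 of ALDOA counts in shAPE1, 3.46% ± 0.181 in shCtrl, 1.40% ± 0.0404 in rABS and 1.64% ± 0.0597 in Parental.

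**Figure D2:**
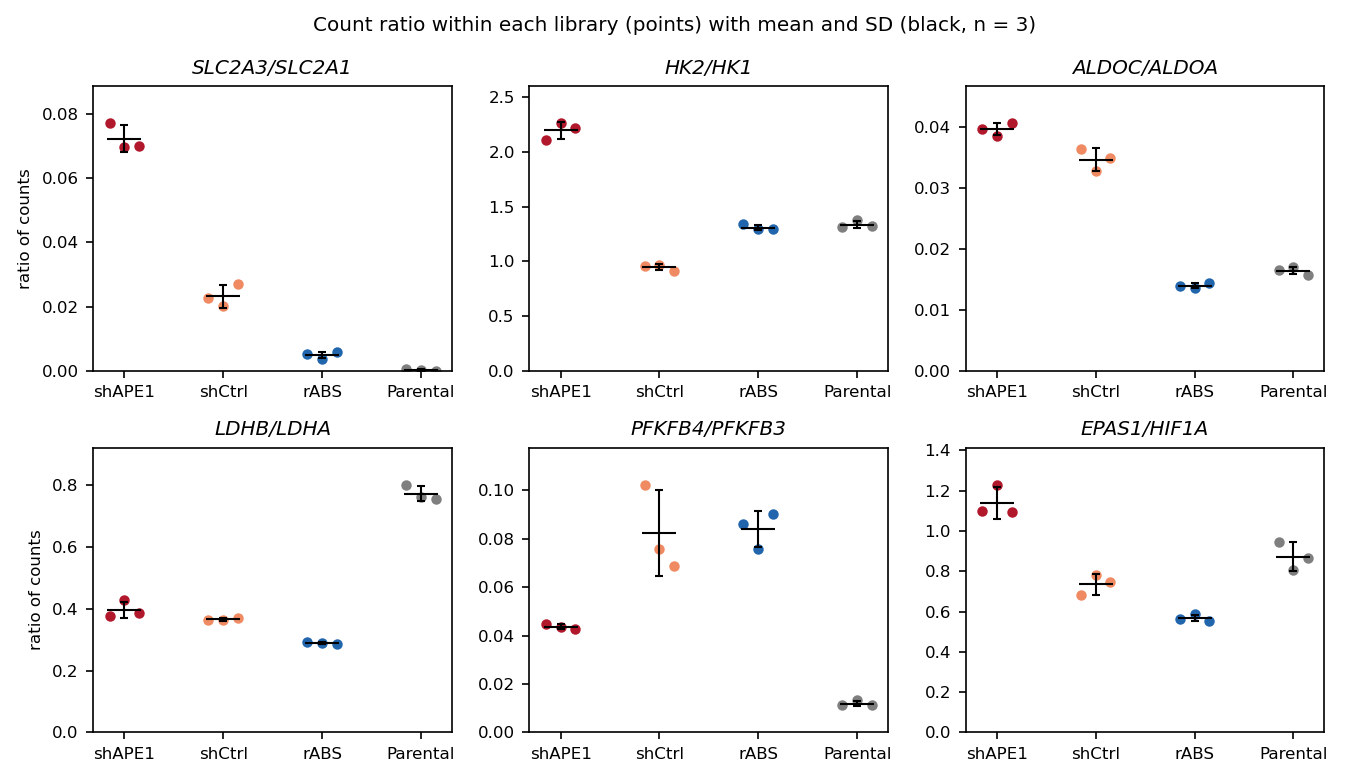
Ratio of counts between related genes (vertical axes, linear from 0) in each of the 12 libraries, with mean and SD in black (n = 3 per group). LDHB/LDHA is highest in Parental, HK2/HK1 is highest in shAPE1 at 2.20, and SLC2A3/SLC2A1 and ALDOC/ALDOA are higher in both hairpin groups than in rABS and Parental.

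The bifunctional enzymes PFKFB3 and PFKFB4 set the level of fructose 2,6-bisphosphate, the main activator of phosphofructokinase, and they moved in opposite directions after exposure. PFKFB4 (chromosome 3, 48517684 to 48562015) had 7.33, 7.31 and 6.56 CPM in shAPE1, 9.35, 7.85 and 7.17 in shCtrl, 15.7, 14.9 and 15.8 in rABS, and 2.70, 2.95 and 2.65 in Parental. Every Parental library was below every other library. It rose 5.56-fold in rABS (log2 2.48 ± 0.15, adjusted p = 3.27e-15), was lower in shCtrl than in rABS (log2 -0.93 ± 0.13), and did not pass the test between shAPE1 and shCtrl (log2 -0.19 ± 0.14, adjusted p = 0.303). PFKFB3 (chromosome 10, 6144934 to 6254644) had 164, 168 and 154 CPM in shAPE1, 91.3, 104 and 104 in shCtrl, 182, 197 and 175 in rABS, and 241, 222 and 235 in Parental. It was lower in rABS than in Parental (log2 -0.33 ± 0.07, adjusted p = 0.000116), lower again in shCtrl than in rABS (-0.89 ± 0.07, adjusted p = 1.75e-11), and higher in shAPE1 than in shCtrl (0.70 ± 0.07, adjusted p = 1.78e-09). Counts of PFKFB4 were 4.37% ± 0.109 of PFKFB3 counts in shAPE1, 8.23% ± 1.78 in shCtrl, 8.41% ± 0.747 in rABS and 1.19% ± 0.116 in Parental. PDK1, the kinase that shuts pyruvate dehydrogenase and a well known HIF-1 target, had 38.2, 31.2 and 37.9 CPM in shAPE1, 44.1, 33.6 and 34.3 in shCtrl, 46.9, 45.1 and 52.8 in rABS, and 43.04, 48.9 and 43.9 in Parental. It was not called between rABS and Parental (log2 0.09 ± 0.10, adjusted p = 0.458) and was lower in shCtrl than in rABS (log2 -0.37 ± 0.10, adjusted p = 0.00407).

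Both genes of HIF alpha subunits were lower in the survivors than in untreated cells, in the comparison where LDHA, PGAM1 and PFKFB4 were higher. HIF1A (chromosome 14, 61695513 to 61748259) had 217, 209 and 223 CPM in shAPE1, 287, 257 and 270.4 in shCtrl, 309, 297 and 313 in rABS, and 408, 485 and 438 in Parental. EPAS1, which encodes HIF-2 alpha (chromosome 2, 46293667 to 46386703), had 239, 257 and 243 CPM in shAPE1, 195, 201 and 202 in shCtrl, 174, 174 and 174 in rABS, and 386, 391 and 380.2 in Parental. Parental was highest for both without overlap, with a log2 fold change in rABS of -0.53 ± 0.07 for HIF1A (adjusted p = 4.12e-08) and -1.15 ± 0.06 for EPAS1 (adjusted p = 1.05e-16). HIF1A was lower in shAPE1 than in shCtrl (log2 -0.33 ± 0.07, adjusted p = 0.000294) and EPAS1 higher (log2 0.31 ± 0.06, adjusted p = 0.000171), and the count ratio of EPAS1 to HIF1A was 1.14 ± 0.0780 in shAPE1, 0.737 ± 0.0518 in shCtrl, 0.568 ± 0.0166 in rABS and 0.873 ± 0.0706 in Parental. The fall of HIF1A between shCtrl and rABS was small (log2 -0.17 ± 0.07, adjusted p = 0.0443) and was lost with upper-quartile scaling, with other filters on low counts, and when shCtrl replicate 2 or 3 or rABS replicate 1 or 3 was left out (adjusted p = 0.105 to 0.178 for these 4).

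VHL, the substrate receptor that marks HIF alpha for destruction (chromosome 3, 10141008 to 10152220), had 11.7, 11.98 and 12.003 CPM in shAPE1, 29.2, 27.8 and 26.4 in shCtrl, 21.01, 21.8 and 21.7 in rABS, and 28.6, 31.8 and 26.8 in Parental. Every shAPE1 library was below every other library (log2 -1.23 ± 0.10 against shCtrl, adjusted p = 2e-11), and rABS lay below Parental (log2 -0.44 ± 0.10, adjusted p = 0.000216). EGLN1, the main oxygen-sensing prolyl hydroxylase, had 107, 129.6 and 123 CPM in shAPE1, 79.8, 74.9 and 77.7 in shCtrl, 104, 96.1 and 109 in rABS, and 87.7, 84.5 and 82.2 in Parental. It was higher in shAPE1 than in shCtrl (log2 0.63 ± 0.08, adjusted p = 3.93e-08). EGLN3, the hydroxylase that HIF itself induces (chromosome 14, 33924231 to 34462774), had 15.7, 15.4 and 12.9 CPM in shAPE1, 12.3, 9.84 and 9.61 in shCtrl, 23.8, 23.2 and 22.1 in rABS, and 6.57, 6.27 and 8.20 in Parental. It rose 3.29-fold in rABS against Parental (adjusted p = 4.93e-13), was lower in shCtrl than in rABS (log2 -1.12 ± 0.12, adjusted p = 1.17e-08) and higher in shAPE1 than in shCtrl (log2 0.48 ± 0.13, adjusted p = 0.00281). Relative to EGLN1, EGLN3 counts were 12.4% ± 2.09 in shAPE1, 13.6% ± 1.56 in shCtrl, 22.4% ± 1.94 in rABS and 8.30% ± 1.45 in Parental.

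**Figure D3:**
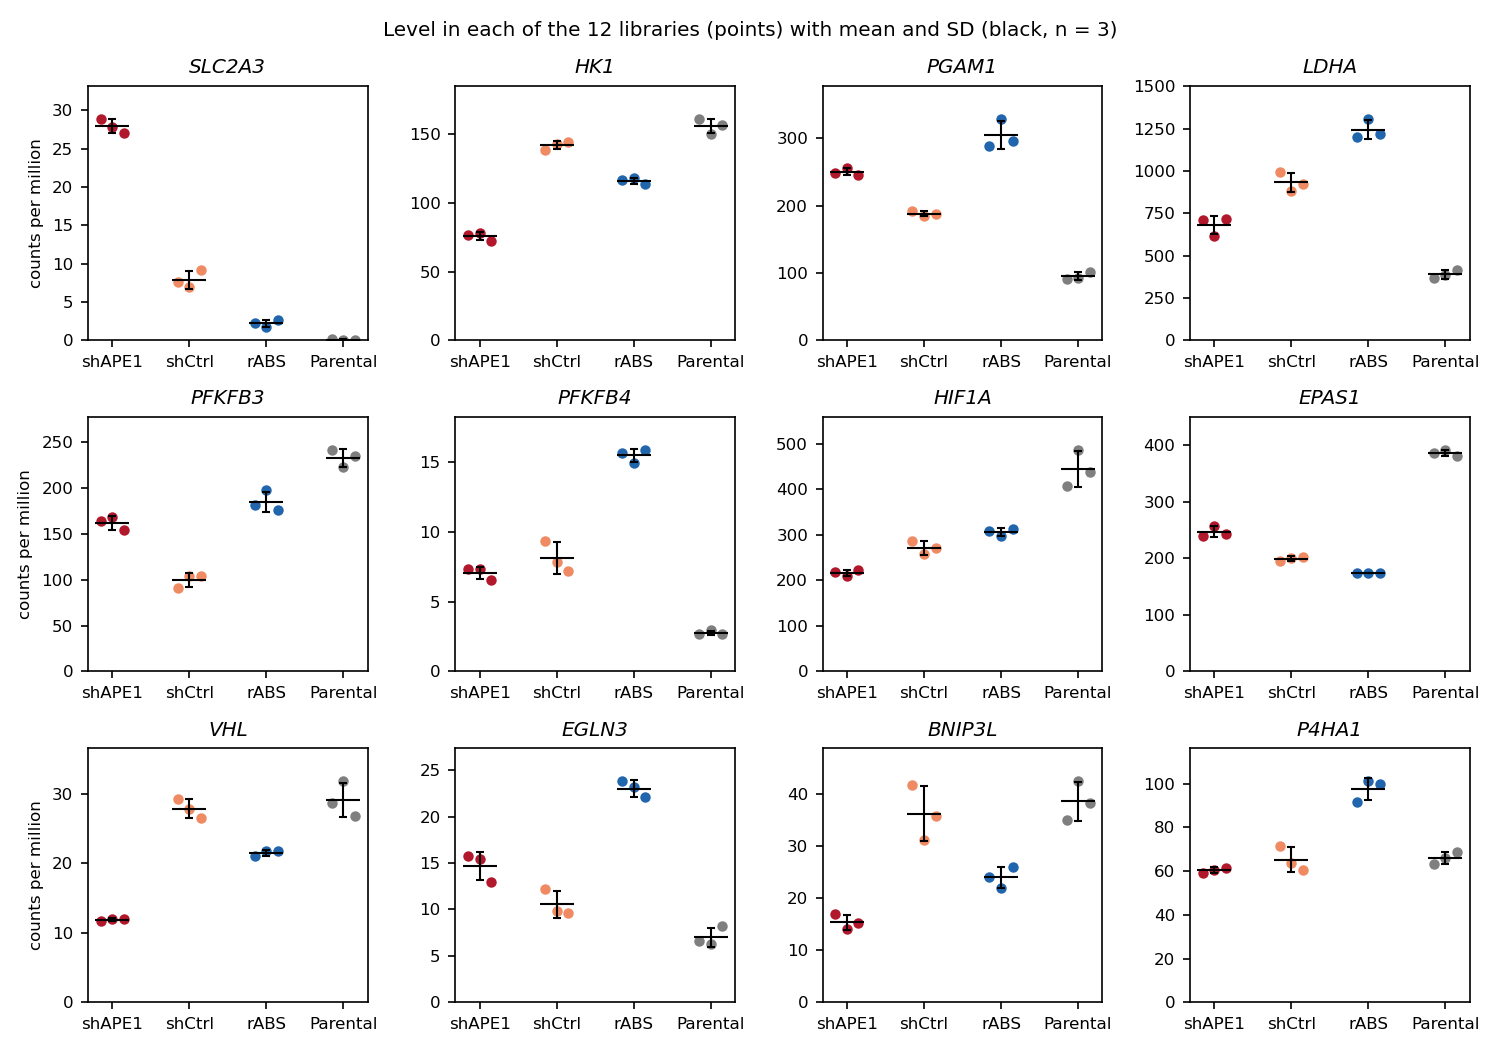
CPM (vertical axes, linear from 0) of 12 of the genes in each of the 12 libraries, with mean and SD in black (n = 3 per group). SLC2A3 is near 0 in Parental and highest in shAPE1, LDHA, PGAM1, PFKFB4 and EGLN3 are highest in rABS, and VHL and BNIP3L are lowest in shAPE1.

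Among the 7 other HIF targets, the mitophagy receptors had the largest differences between shAPE1 and shCtrl. BNIP3L, also called NIX, which removes mitochondria in hypoxia and in maturing red cells, had 16.9, 14.01 and 15.2 CPM in shAPE1, 41.7, 31.1 and 35.6 in shCtrl, 24.1, 21.9 and 25.9 in rABS, and 34.9, 42.4 and 38.3 in Parental. It was lower in rABS than in Parental (log2 -0.69 ± 0.11, adjusted p = 1.68e-06), higher in shCtrl than in rABS (0.59 ± 0.11, adjusted p = 5.6e-05) and lower in shAPE1 than in shCtrl (-1.23 ± 0.11, adjusted p = 1.55e-10), without overlap in any of these. BNIP3, its relative, had only 2.31, 2.03 and 1.63 CPM in shAPE1, 3.75, 4.45 and 3.88 in shCtrl, 1.82, 2.27 and 2.57 in rABS, and 4.57, 3.56 and 3.07 in Parental. It passed the same tests in the same directions (log2 -0.73 ± 0.23, 0.86 ± 0.22 and -1.01 ± 0.23), the first of which was lost without Parental replicate 1 (adjusted p = 0.0603). Its counts are uncertain, because 44 pseudogenes carry its name and together drew 163 counts in shAPE1, 391 in shCtrl, 288 in rABS and 319 in Parental, where BNIP3 itself drew 108, 254, 122 and 194. Neither was called between shCtrl and Parental (adjusted p = 0.451 for BNIP3L and 0.652 for BNIP3).

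P4HA1, a collagen prolyl hydroxylase subunit, had 58.97, 60.7 and 61.5 CPM in shAPE1, 71.6, 63.7 and 60.6 in shCtrl, 91.6, 101 and 99.99 in rABS, and 63.04, 66.02 and 68.8 in Parental. It rose in rABS against Parental (log2 0.56 ± 0.08, adjusted p = 1.19e-07) and was lower by about as much in shCtrl than in rABS (-0.58 ± 0.08, adjusted p = 3.38e-07). NDRG1, a stress-responsive differentiation gene, had 388, 408 and 357 CPM in shAPE1, 336, 315 and 316 in shCtrl, 476, 462 and 454 in rABS, and 449, 422 and 430.1 in Parental. ADM, the vasodilator peptide adrenomedullin, had 22.8, 22.4 and 18.3 CPM in shAPE1, 13.6, 16.3 and 17.4 in shCtrl, 23.7, 25.4 and 20.5 in rABS, and 25.5, 22.97 and 23 in Parental. Neither passed the test between rABS and Parental (adjusted p = 0.2 and 0.8), both were lower in shCtrl than in rABS (log2 -0.53 ± 0.06 and -0.55 ± 0.11) and both higher in shAPE1 than in shCtrl (log2 0.25 ± 0.06 and 0.42 ± 0.11). KDM3A, a histone H3 lysine demethylase, had 52.5, 47.03 and 49.1 CPM in shAPE1, 55.5, 48.5 and 55.6 in shCtrl, 59.2, 58.4 and 63.1 in rABS, and 58.5, 70.1 and 66.7 in Parental. It was called only between shCtrl and Parental among the 4 comparisons (log2 -0.30 ± 0.08, adjusted p = 0.00336). ANKRD37, an ankyrin repeat gene, rested on 10 to 34 counts per library, at 0.904, 0.563 and 0.875 CPM in shAPE1, 0.792, 0.891 and 0.647 in shCtrl, 1.94, 1.69 and 1.26 in rABS, and 0.830, 0.983 and 0.767 in Parental. Its rise in rABS (log2 0.90 ± 0.37, adjusted p = 0.0369) was lost when any one of the 6 libraries compared, other than rABS replicate 3, was left out (adjusted p = 0.0502 to 0.13) and without a filter on low counts (adjusted p = 0.101), and exons of UFSP2 overlap it on the opposite strand.

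Set side by side, the glycolytic genes and the other HIF targets had medians farther apart in the comparisons with Parental than in the other two. Between rABS and Parental, 12 of 22 glycolytic genes rose and 4 fell (median log2 0.27), with 6 higher by at least 2-fold, as were 10.1% of all genes tested. Of the 7 other HIF targets 2 rose and 2 fell (median -0.04). Over all genes tested 29.9% rose and 29.9% fell, so the counts of the other HIF targets were near the background. Between shCtrl and rABS, 3 glycolytic genes rose and 15 fell (median -0.31), and 2 other HIF targets rose and 4 fell (median -0.53). Of all genes tested, 17.9% rose and 18.6% fell there. Between shAPE1 and shCtrl, 7 glycolytic genes rose and 5 fell (median 0.02), and 2 other HIF targets rose and 2 fell (median -0.10). Of all genes tested, 17.8% rose and 18.8% fell there. Between shCtrl and Parental, 12 glycolytic genes rose and 6 fell (median 0.24), while none of the other HIF targets rose and 3 fell (median -0.15). Of all genes tested, 27% rose and 26.1% fell there. EGLN3, itself a HIF target, was counted with the HIF subunits and oxygen sensing, not among the 7 other HIF targets. Between rABS and Parental it rose (log2 1.72), as did EGLN1 (0.28), in a class of 5 where 2 rose and 3 fell. The contrast between the classes thus depends on where these genes are placed. The difference between the classes was not tested.

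**Figure D4:**
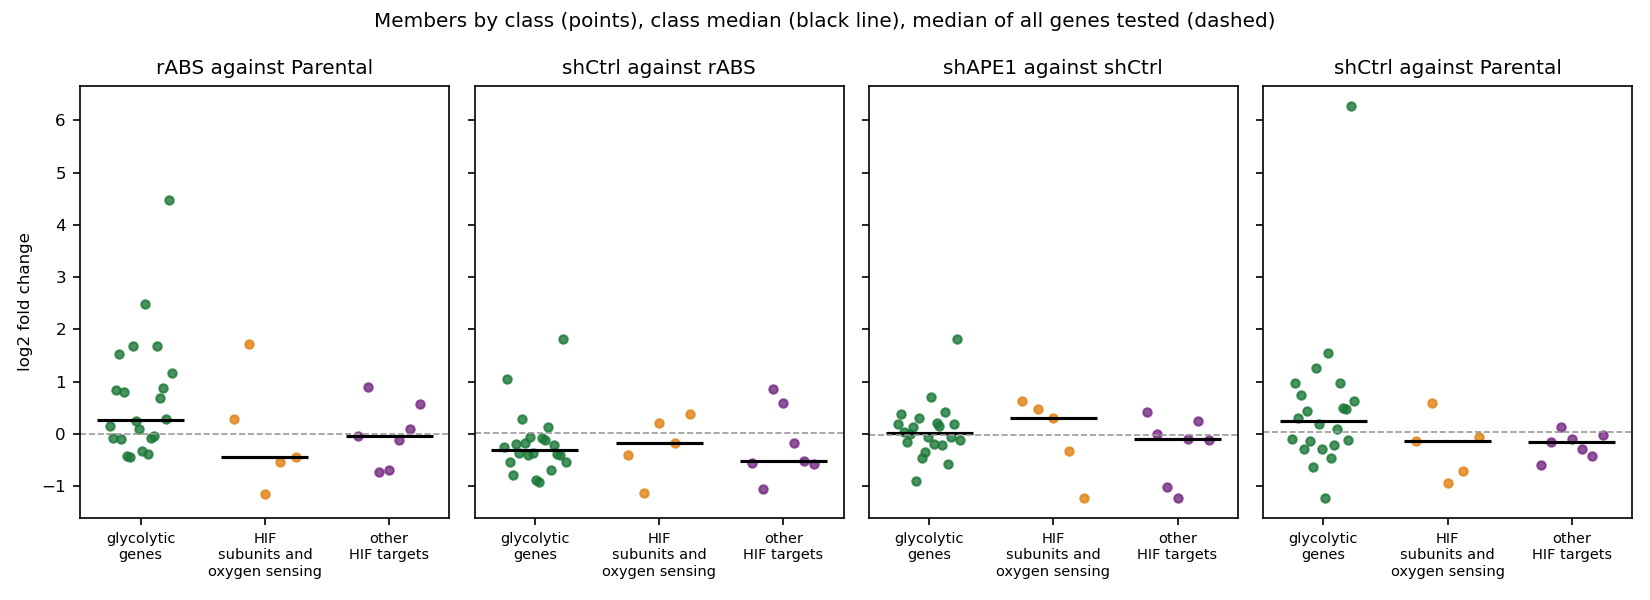
Log2 fold change (vertical axis) of each member by class in the 4 comparisons, with the class median as a black line and the median of all genes tested as a dashed line. Between rABS and Parental the glycolytic genes have a median of 0.27 and the other HIF targets -0.04, and between shCtrl and rABS both medians lie below 0.

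Summed over the 17 enzyme genes, the level was 13759 to 14687 CPM in shAPE1 libraries, 13973 to 14243 in shCtrl, 16595 to 18002 in rABS and 12775 to 14383 in Parental. Summed over the 7 other HIF targets it was 503 to 555 CPM in shAPE1, 480.1 to 523 in shCtrl, 667 to 678 in rABS and 628 to 636 in Parental. In both sums every rABS library was above every library of the other groups. However, NDRG1, not called between rABS and Parental, alone held 454 to 476 CPM of the second sum in rABS and 422 to 449 in Parental. The largest parts of the first sum, GAPDH and ALDOA, were not called in that comparison either. The mean of log2(CPM + 1) over the 7 genes, which weights them equally, was 4.38 to 4.52 in shAPE1, 4.63 to 4.68 in shCtrl, 4.81 to 4.83 in rABS and 4.81 to 4.88 in Parental. By that mean rABS and Parental overlapped. The same mean over the 17 enzymes was 8.40 to 8.48 in shAPE1, 8.48 to 8.50 in shCtrl, 8.64 to 8.76 in rABS and 8.14 to 8.28 in Parental. By it rABS was highest, and every shAPE1 and shCtrl library lay above every Parental library, which the sum did not show.

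Genes around the pathway, in lists outside the members, gave the setting. Of 22 tested HIF targets outside the members, 7 were higher and 9 lower in rABS than in Parental. Of all genes tested, 29.9% were higher and 29.9% lower in that comparison. The log2 fold changes of the 22 ran from -3.88 to 1.95. VEGFA, the angiogenic growth factor, fell (log2 -2.28 ± 0.08, adjusted p = 6.03e-22), as did IGFBP3, an insulin-like growth factor binding protein (log2 -1.69). Among those that rose, chosen after their values were seen, were the collagen lysyl hydroxylase PLOD2 (log2 1.95), the lipid droplet gene HILPDA (1.93) and the adenylate kinase AK4 (1.41). Between shAPE1 and shCtrl 5 of the 22 rose and 4 fell, where 17.8% and 18.8% of all genes did. IGFBP3 (log2 0.82) and the demethylase KDM4B (0.78) were among those that rose. In this comparison the 22 log2 fold changes ran from -1.34 to 0.82, so the largest change was a fall. Among 9 HIF cofactors and VHL complex genes, RBX1 rose in rABS and 4 fell, with EP300, a coactivator (log2 -0.36), and ARNT, the HIF beta subunit (-0.33), among them. ARNT was higher in shAPE1 than in shCtrl (log2 0.45 ± 0.08, adjusted p = 2.15e-05), where 2 of the 9 rose and 3 fell, with ELOC, elongin C of the VHL complex, at -0.48.

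The pentose phosphate genes, which draw glucose 6-phosphate away from glycolysis, fell in 5 of 7 cases in rABS and rose in none (median log2 -0.73). For this and the lists below, 29.9% of all genes tested were higher and 29.9% lower in rABS than in Parental. PGD, phosphogluconate dehydrogenase, and TKT, transketolase, had log2 fold changes of -1.28 and -1.18. In shCtrl against Parental the count was again 5 of 7 lower and none higher (median -0.83), and in shAPE1 against shCtrl 2 rose and 2 fell. All genes tested gave 27% higher and 26.1% lower in the former, and 17.8% and 18.8% in the latter. Among 16 genes of pyruvate and lactate handling, 3 rose and 3 fell in rABS, with PDK4, a starvation-induced pyruvate dehydrogenase kinase, at 3.55 ± 0.561 CPM against 42.2 ± 1.23 in Parental (log2 -3.56 ± 0.13, adjusted p = 2.11e-21). PDK4 was higher in shCtrl than in rABS (log2 1.70) and lower in shAPE1 than in shCtrl (-1.05), where PC, pyruvate carboxylase, was higher (1.08 ± 0.11, adjusted p = 1.58e-09). Among 9 tested genes of gluconeogenesis and glycogen, 2 rose and 5 fell in rABS, with PCK2, mitochondrial phosphoenolpyruvate carboxykinase, at log2 -2.44 and GYS1, glycogen synthase, at 0.97. Of 7 tested minor isozyme genes, none rose and 3 fell, the largest difference being that of HKDC1, a hexokinase domain gene (log2 -1.67).

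The overlapping 7-base strings TGCATTC, then GCATTCT, and lastly CTGCATT had been picked in an earlier look at the fold changes of shAPE1 against shCtrl, and all occur in the APEX1 3' untranslated region. In GENCODE 29 the longest 3' untranslated region of 12 of the 34 members held at least 1 of them. Of the 9 members that fell in shAPE1 5 did (HK1, PGK1, LDHA, HIF1A and BNIP3L), and of the 12 that rose 2 did (EGLN1 and NDRG1). Over all tested genes with such a region the shares were 49.8% of those that fell and 21.9% of those that rose, so the members' shares, 55.6% and 16.7%, were near the background. VHL and BNIP3, which fell most beside BNIP3L, held none. The first match of 4 of these genes is shown with its flanks, the strings in capitals, to let the sites be compared with one another.
HK1: ttctaatgtaTGCATTCatccaacagag
PGK1: taaaccattgTGCATTCTagagtgcata
HIF1A: aaaaaaatcaTGCATTCTtagcaaaatt
EGLN1: aggggagtggTGCATTCTtggctcactg
PGK1, HIF1A and EGLN1 carry the same run in capitals, and EGLN1 was higher in shAPE1 where PGK1 and HIF1A were lower. The part of these strings in the results was not tested.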

How the data were processed

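RNA of 12 OE33 libraries (3 per group) was analysed from the deposited matrix of raw counts per Ensembl gene, not normalized by the authors. Per the submitters' processing notes, Trimmomatic 0.36, STAR 2.5.2b, featureCounts of Subread 1.5.2 and GRCh38 were used. Which annotation release and strand option the counting used, and how it treated multi-mapped reads, is not given in the sources used here. Genes were named from a table of Ensembl IDs and symbols. Genes passing filterByExpr (minimum count 10, minimum total 15) were fitted with edgeR 4.0.16 in R 4.3.3: TMM scaling, 1 model over all 12 libraries, quasi-likelihood tests, Benjamini-Hochberg adjustment over 15805 genes. Standard errors are the absolute log2 fold change over the square root of F. CPM used TMM-scaled library sizes. DESeq2 1.42.0, limma-voom (limma 3.58.1), other scalings and filters, a 1.5-fold threshold, a replicate block and leaving out each library were alternatives, and the scripts were tested on simulated data. Replicate numbers did not pair the libraries (correlations of same-numbered deviations -0.167 to 0.0673). No source states that replicates were separate cultures, so p-values measure only the spread between these libraries. The members, the lists and the 7-base strings were chosen with earlier results of these data known. Per-library values are given for up to 8 genes per role with the largest called changes, and up to 3 genes per surrounding list by lowest adjusted p. PLOD2, HILPDA and AK4 were instead named after their values were seen. Some genes of the surrounding lists are counted but not reported by name here.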

Additional observations from a re-analysis of the deposited data

How the results depend on the processing

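No called fold change of a member reversed under any alternative run. With the added requirement of a 1.5-fold change, 12 members were higher and 3 lower in rABS than in Parental, where 19% and 18.3% of all genes tested were. Of the genes from TPI1 to LDHB 7 were then higher, and of those from HK1 to ALDOC 0 were lower. Under that requirement 4 members were higher and 6 lower in shCtrl than in rABS (all genes 7.23% and 5.47%), 3 higher and 4 lower in shAPE1 than in shCtrl (4.74% and 8.44%), and 8 higher and 5 lower in shCtrl than in Parental (15.5% and 12.4%). Of the 136 fold changes (34 genes in 4 comparisons), RLE scaling left 135 on the same side of the threshold, upper-quartile scaling 131, DESeq2 134, limma-voom 135, no filter on low counts 129, a filter of 1 CPM in 3 libraries 135, and fits of the 6 libraries alone 135. With the replicate number as a block, 134 stayed, and the calls of HIF1A between shCtrl and rABS (adjusted p = 0.0708) and of ALDOA between shAPE1 and shCtrl (adjusted p = 0.0565) were lost; the numbers do not pair the libraries. Leaving out each library in turn moved no count of called members by more than 1.5 times, but 13 called fold changes were lost in at least 1 such fit. Beside those named with their results these were ANKRD37, EPAS1, GAPDH, HK2 and PGK1 between shCtrl and rABS, ALDOA between shAPE1 and shCtrl, and LDHB and PDK1 between shCtrl and Parental (adjusted p = 0.0503 to 0.173). Low counts limit SLC2A3 in Parental, ANKRD37 and BNIP3.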
